A study of Rattus norvegicus with 6 samples.

Results

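The genes described here encode the cytosolic factors that start and elongate protein synthesis, together with a few enzymes that modify them. They were chosen by name, as rat genes whose symbol begins with Eif or Eef followed by a digit; the eIF4E-binding proteins and the eIF2 kinases were set apart as regulators. The array holds 115 named probes for 50 such genes, 40 named Eif and 10 named Eef, out of 15645 named genes. All 50 genes lay well above background in at least 1 group and could be tested, among 32956 transcripts in all, of which 12298 have a gene name. The gene table used for naming lists 68 protein-coding symbols of this kind, so Eif4g1, Eif5 and others are not analysed here.

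RNA came from the renal cortex of male Sprague-Dawley (Crl:CD(SD)) rats bought at 5 weeks of age. The vehicle group is 3 rats given corn oil and the TBBC group is 3 rats given TBBC, thiobis(6-tert-butyl-m-cresol) in its 4,4' form, at 300 mg/kg/day, each for 4 weeks. TBBC is a phenolic antioxidant with a sulfur bridge. Each rat was hybridised to its own 1-colour array, and the design text calls the replicates biological.

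Initiation begins when eIF2 brings the initiator tRNA to the small ribosomal subunit with eIF1, eIF1A and eIF3, while the eIF4 proteins bind the mRNA cap and unwind the leader. The exchange factor eIF2B recharges eIF2 with GTP, a step that stress kinases block by phosphorylating eIF2, and Atf4 is among the mRNAs that are then translated better. During elongation eEF1A delivers aminoacyl-tRNA, the eEF1B subunits recharge eEF1A, and eEF2 moves the ribosome along. The mRNAs of many elongation factors and ribosomal proteins start with a run of pyrimidines that ties their translation to mTOR signalling.

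Levels are log2 of the processed signal over the array's 75th percentile, so 0 is the level of that percentile and a difference of 1 is 2-fold. Processed signals at the 75th percentile ran from 861 to 1038, and 67.1% to 70.9% of probes lay well above background. TBBC 2 had the lowest value of both. All 3 vehicle rats and TBBC 1 were hybridised on the same slide and the remaining TBBC rats on a second one, scanned apart, so TBBC 1 gives the difference within a slide. Proximal tubule markers were all detected (10 of 10), with a summed scaled signal of 1858 to 1933 in vehicle and 1460 to 1831 in TBBC rats. Tubular injury markers summed to 41.3 to 42.6 in vehicle and 195 to 411 in TBBC rats (9 of 10 tested, 2 past the threshold). Leukocyte markers (11 of 12 tested) ran from 128 to 145 in vehicle rats, and stood at 90.2 in TBBC 1, 94.6 in TBBC 2 and 192 in TBBC 3. Markers of other nephron segments and the glomerulus (10 of 10) ran from 549 to 630 in vehicle and 326 to 500 in TBBC rats, and proliferation markers (8 of 10) from 4.12 to 5.81 and from 2.72 to 5.47. No tested marker was below background on all arrays. Each sum weighs its brightest genes most, such as Spp1 for injury, Umod for other segments, and Lyz2 and Cd74 for leukocytes. Positive and negative mean differences numbered 2 and 8 for proximal tubule, 9 and 0 for injury, and 6 and 5 for leukocytes. They numbered 2 and 8 for other segments, and 0 and 8 for proliferation. The part of these marker levels in the differences below was not tested, and fewer cells of a type cannot be told apart from less RNA per cell.

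None of the 50 factor genes passed the threshold of an adjusted p of 0.05 (limma, Benjamini-Hochberg over all transcripts), where 0.531% of all transcripts did (175, 84 higher and 91 lower in TBBC). The smallest adjusted p was 0.120, for Eef1g. At an unadjusted p under 0.05 there were 8 factor genes higher in TBBC and 0 lower, against 9.55% and 10.4% of all transcripts (20% together). All 3 TBBC rats lay above all 3 vehicle rats for 11 factor genes and below them for 3, against 13.1% and 15.2% of all transcripts (28.3% in either direction). The 11 were Eef1b2, Eef1d, Eef1g, Eef2, Eif1, Eif1a, Eif1ad, Eif3g, Eif3h, Eif3i and Eif3m, and the 3 were Eif2b2, Eif4a2 and Eif4enif1. These counts rest on the brightest probe of each gene, and the groups overlapped on other probes of Eif1, Eif1ad, Eif2b2, Eif3i and Eif4enif1. The mean difference was positive in 39 of 50, where 46.5% of all transcripts were higher and 53.5% lower, and the median log2 difference was 0.14 against -0.02 for all transcripts. Without TBBC 2 the count was 30 higher and 20 lower, with a median of 0.09. Differences were small: the range was -0.41 to 0.83, 2 genes (Eif1a and Eif2b3) reached 1.5-fold, as 12.1% of all transcripts did, and 0 reached 2-fold.

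The share of separate groups varied with brightness. Of the 2891 transcripts with a mean level of at least 4, 32.5% had all TBBC rats above all vehicle rats, 58.5% had a positive mean difference, and their median difference was 0.06. Of the 20 factor genes of that brightness, 7 were separate in that direction and 14 had a positive mean difference, with a median of 0.17. Between 2 and 4 the share among all transcripts was 18.6%, and 2 of 9 factor genes were separate in that direction, with a median of 0.22.

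**Figure D1:**
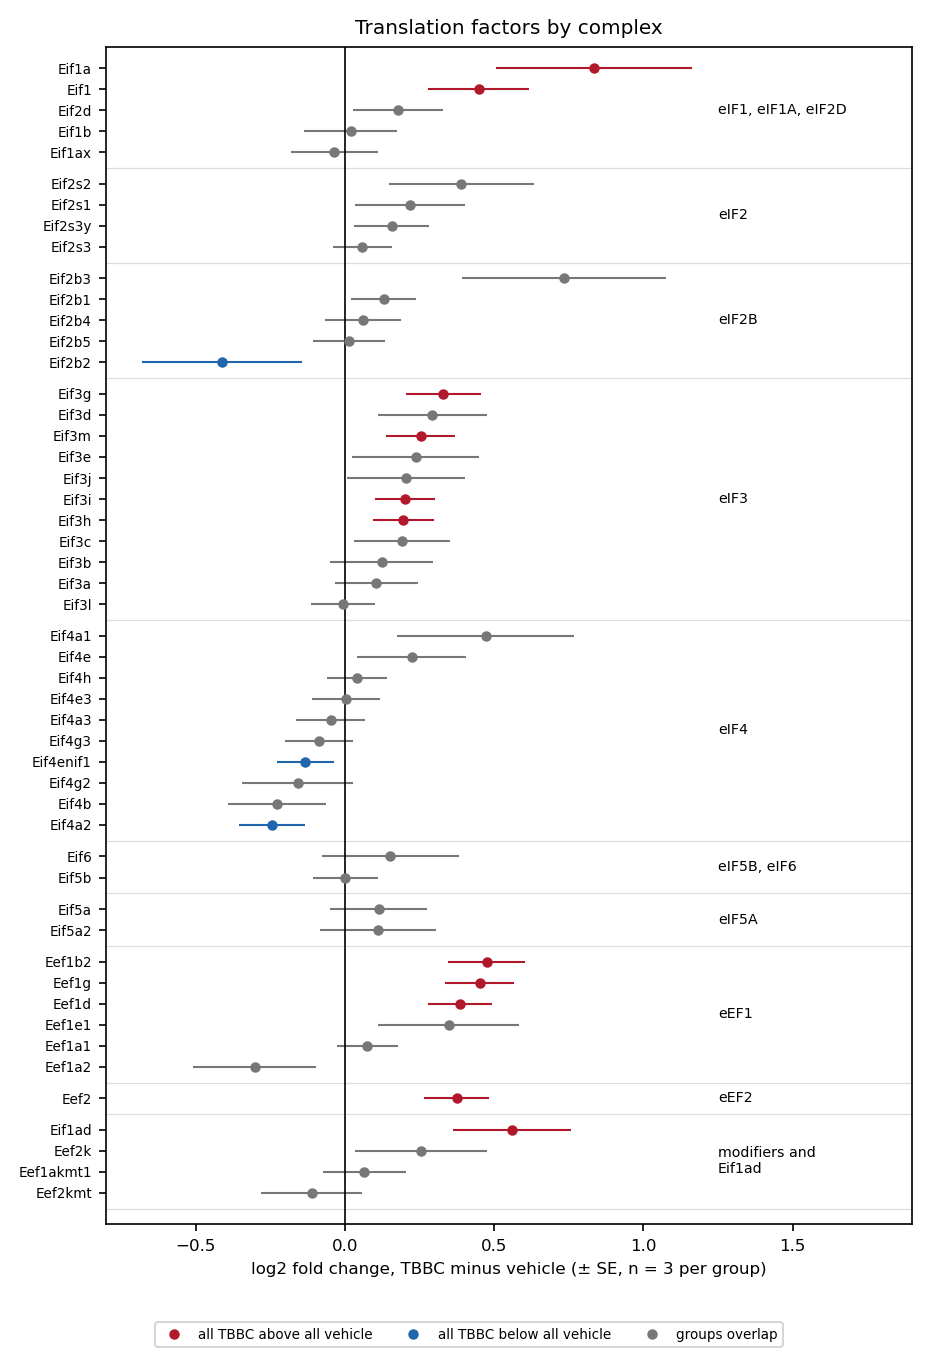
Log2 fold change, TBBC minus vehicle, of each factor gene with its standard error from limma (horizontal axis; n = 3 rats per group), grouped by complex. Red marks the 11 genes with all TBBC rats above all vehicle rats, blue the 3 with all below and grey those whose groups overlap; most eIF3 and eEF1 points lie right of 0 and 6 of 10 eIF4 points lie left of it.

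Among the elongation factors, the 3 subunits that recharge eEF1A were higher in every TBBC rat than in any vehicle rat, whereas eEF1A itself was not. Eef1b2, a nucleotide exchange subunit, lay at 6.01, 6.10 and 6.09 in vehicle 1 to 3 and at 6.70, 6.60 and 6.32 in TBBC 1 to 3, a log2 fold change of 0.47 ± 0.13 (SE; adjusted p 0.133, limma). Eef1g, the scaffold of the exchange complex, had 5.46, 5.67 and 5.63 against 6.16, 5.97 and 5.99 (0.45 ± 0.11). Eef1d, the other exchange subunit, had 5.48, 5.53 and 5.53 against 5.97, 5.97 and 5.76 (0.38 ± 0.11; adjusted p 0.138). For these 3 genes the groups were separate, and all 10 of their tested probes were higher in TBBC, by 0.35 to 0.58.

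Eef1a1, the main form of eEF1A, measured 7.00, 7.16 and 7.05 in vehicle and 7.10, 7.13 and 7.22 in TBBC rats. The groups overlapped, and the difference was 0.07 with a 95% interval of -0.17 to 0.32. Its other probe gave -0.04, and under quantile scaling the difference turned negative. Eef1a2, the form typical of muscle and neurons, had 0.60, 0.79 and 0.82 against 0.82, 0.42 and 0.06, a difference of -0.30 ± 0.21 to which TBBC 1 did not contribute. The gap between Eef1b2 and Eef1a1, a pair picked after the values were seen, went from -0.99, -1.07 and -0.96 in vehicle to -0.39, -0.53 and -0.90 in TBBC rats. Eef1a1 and Eef1g have 20 and 16 pseudogenes in the gene table, whose RNA a probe may not separate from theirs.

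Eef2, the translocation factor, lay at 5.30, 5.35 and 5.46 in vehicle and at 5.85, 5.66 and 5.71 in TBBC rats, 0.37 ± 0.11 higher (adjusted p 0.147, limma). All TBBC values exceeded all vehicle values. Eef2k, the kinase that inactivates eEF2, had -0.42, -0.80 and -0.66 against -0.65, -0.55 and 0.08 (0.25 ± 0.22), with TBBC 3 alone above the vehicle range. Eef1e1, a scaffold of the multi-synthetase complex despite its name, had 1.05, 0.96 and 1.00 against 1.45, 1.77 and 0.83. It was high in TBBC 1 and 2 and below every vehicle rat in TBBC 3. The methyltransferases Eef1akmt1 and Eef2kmt, which modify eEF1A and eEF2, differed by 0.06 and -0.11.

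**Figure D2:**
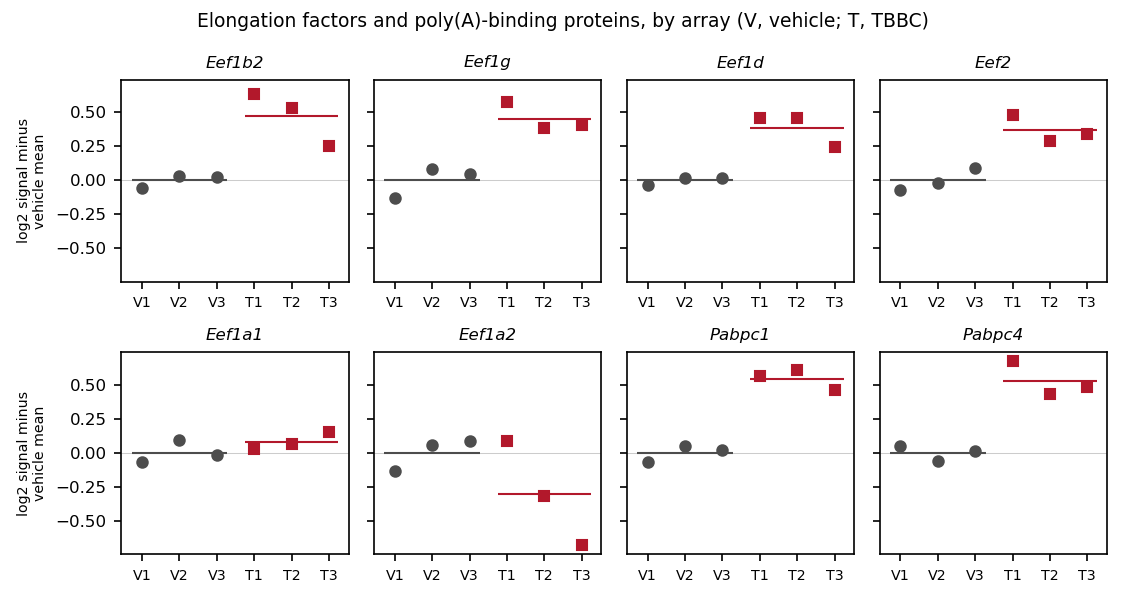
Log2 level minus the vehicle mean (vertical axis) on each array for 6 elongation factors and 2 poly(A)-binding proteins; circles are vehicle rats (V1 to V3), squares TBBC rats (T1 to T3) and lines group means. Eef1b2, Eef1g, Eef1d, Eef2, Pabpc1 and Pabpc4 are separate between the groups, Eef1a1 is not, and Eef1a2 is spread over the TBBC rats.

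The promoters of these elongation factors are shown because pyrimidine starts are the shared feature of this mRNA class. Of the 50 genes, 45 had windows in RefSeq's promoter table (GRCr8), 47 in all. Below are 60 bases before and 20 after the listed start, each 5′ to 3′ on the gene's strand; capitals mark a run of C followed by at least 4 pyrimidines that begins within 10 bases of that start, and a window without capitals has none that begins there.
Eef1b2, chr9:72074031-72074110, plus strand: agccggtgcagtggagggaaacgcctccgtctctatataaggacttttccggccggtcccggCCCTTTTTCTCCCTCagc
Eef1a1, chr8:88225050-88225129, minus strand: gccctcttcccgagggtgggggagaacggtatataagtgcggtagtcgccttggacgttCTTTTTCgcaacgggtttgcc
Eef1g, chr1:215289755-215289834, plus strand: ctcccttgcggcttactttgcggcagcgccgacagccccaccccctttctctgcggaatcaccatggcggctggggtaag
Eef2, chr7:9189219-9189298, minus strand: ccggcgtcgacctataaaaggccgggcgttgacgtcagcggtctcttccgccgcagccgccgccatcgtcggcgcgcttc
The run is present in Eef1b2 and Eef1a1, and in Eef1g and Eef2 no such run begins within 10 bases of the start. Both of the latter windows hold such a run in lower case further before the listed start. Which start these mRNAs use in the kidney was not tested. In all, 15 of 47 factor windows held it (31.9%), against 28.9% of all promoters of the table and 75.4% of 61 ribosomal protein promoters. Exactly at the listed start such a run was found in 0 factor windows, in 34.4% of the ribosomal ones and in 2.63% of all promoters.

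Of the 5 factors that find the start codon or deliver the initiator tRNA to it, 0 passed the threshold, 4 had a positive mean difference, and 4, 4 and 2 lay above the vehicle mean in TBBC 1, 2 and 3. Eif1, which guards start-codon choice, had 6.68, 6.53 and 6.68 in vehicle and 7.33, 7.16 and 6.75 in TBBC rats (0.45 ± 0.17; adjusted p 0.220, limma). Eif1a, which acts with it, had the largest difference of all factor genes, with -0.45, -0.38 and -0.38 against 0.26, 1.19 and -0.15 (0.83 ± 0.33; adjusted p 0.232). On the brightest probe of both genes the groups were just separate, TBBC 3 lying closest to vehicle. On the other probes of Eif1, with differences of 0.27 and 0.55, the groups overlapped. Without TBBC 2 the Eif1a difference was 0.46. Its paralogue Eif1ax differed by -0.04 on its brightest probe, but its other probes were higher on all TBBC arrays, by 0.54 and 0.55, so the probes disagree. Eif1ad, a protein with an eIF1A-like domain, lay at 1.41, 1.49 and 1.55 in vehicle and at 2.21, 2.30 and 1.61 in TBBC rats (0.56 ± 0.20; adjusted p 0.197). Eif1b and Eif2d, the latter an alternative carrier of initiator tRNA, differed by 0.02 and 0.18.

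The eIF2 subunits had positive mean differences, with no separate groups among the 4 genes on their brightest probes. On another probe of Eif2s2 and another of Eif2s3 all TBBC rats lay above all vehicle rats. Eif2s2, the beta subunit, had 4.61, 4.60 and 4.56 in vehicle and 4.87, 5.51 and 4.55 in TBBC rats (0.39 ± 0.24). Eif2s1, the alpha subunit on which stress kinases act, had 3.44, 3.39 and 3.47 against 3.68, 3.98 and 3.29 (0.22 ± 0.18). On these probes both were highest in TBBC 2 and below the vehicle range in TBBC 3, and without TBBC 2 their differences were 0.12 and 0.05. On the Eif2s2 probe with separate groups TBBC 3 stood at 4.17, against at most 4.15 in vehicle rats. Of the gamma subunits, Eif2s3 differed by 0.06, and Eif2s3y, the Y-linked form, had 0.10, -0.11 and 0.07 against 0.01, 0.27 and 0.25 (0.16).

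The subunits of eIF2B had unlike values. Eif2b3, the gamma subunit, had -0.23, -0.29 and -0.28 in vehicle and 0.55, 1.13 and -0.29 in TBBC rats (0.73 ± 0.34; adjusted p 0.297, limma). On this brightest probe TBBC 1 and 2 lay far above vehicle and TBBC 3 at its lower edge. On its other probes TBBC 3 lay just above every vehicle rat, at -0.51 against at most -0.63 and at -0.98 against at most -1.06. The 3 probes ranged from 0.73 to 0.77. Without TBBC 2 the difference was 0.40 and without TBBC 3 it was 1.11. Eif2b2, the beta subunit, had the lowest difference of all factor genes, with 5.21, 4.25 and 4.27 against 4.22, 4.11 and 4.16 (-0.41 ± 0.27). That value rests on vehicle 1, without which it was -0.10. Eif2b5, the catalytic subunit, had 1.52, 1.43 and 1.48 against 1.61, 1.56 and 1.30 (0.01 ± 0.12), and Eif2b1 and Eif2b4 differed by 0.13 and 0.06.

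In the eIF3 scaffold 0 of 11 genes passed the threshold. A positive mean difference was found for 10 of them, between 0.10 and 0.33, and Eif3l stood at -0.01. Eif3g had 2.03, 1.91 and 2.08 in vehicle and 2.43, 2.43 and 2.14 in TBBC rats (0.33 ± 0.13; adjusted p 0.222, limma). Eif3m had 3.41, 3.18 and 3.44 against 3.57, 3.66 and 3.56 (0.25 ± 0.11). These 2 genes, with Eif3h and Eif3i (0.20 each), were higher in every TBBC rat than in any vehicle rat. Eif3d, Eif3e, Eif3j and Eif3c followed at 0.29, 0.24, 0.20 and 0.19, and Eif3b and Eif3a at 0.12 and 0.10, with overlapping groups. These values rest on the brightest probe of each gene. The other Eif3j probe differed by 0.40, with separate groups. Other probes of Eif3a gave 0.18 and 0.35, and the other probe of Eif3d gave 0.17. By array the eIF3 median was 0.14, 0.32 and 0.06 in TBBC 1, 2 and 3.

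The eIF4 proteins were split, with 4 positive and 6 negative mean differences. Eif4a1, the main helicase, had 5.29, 5.31 and 4.81 in vehicle and 5.24, 6.24 and 5.34 in TBBC rats (0.47 ± 0.30). The brightest probe, used here, has a low vehicle 3. All 7 probes were higher in TBBC, by 0.44 to 0.61, and on 5 of them the groups were separate. Without TBBC 2 the difference on the brightest probe was 0.16. Its paralogue Eif4a2 had 4.81, 4.70 and 4.92 against 4.47, 4.60 and 4.62 (-0.25 ± 0.11; adjusted p 0.285, limma), so every TBBC value lay below every vehicle value. Eif4a1 and Eif4a2 were chosen as a pair after the values were seen. The level of Eif4a1 minus that of Eif4a2 was 0.48, 0.61 and -0.11 in vehicle and 0.78, 1.63 and 0.71 in TBBC rats.

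Eif4e, the cap-binding protein, had 2.63, 2.68 and 2.62 in vehicle and 3.02, 3.11 and 2.47 in TBBC rats (0.22 ± 0.18), above vehicle in TBBC 1 and 2 and below it in TBBC 3. Eif4b, a cofactor of the helicase, had 4.22, 4.32 and 4.26 against 3.72, 4.09 and 4.30 (-0.23 ± 0.16), but its 6 probes ran from -0.26 to 0.31. Eif4g2, a scaffold that does not bind eIF4E, differed by -0.16, with all 8 probes lower, and Eif4enif1, which carries eIF4E into the nucleus, by -0.13. Eif4g3, Eif4a3, Eif4e3 and Eif4h lay between -0.09 and 0.04. Eif4a1, Eif4e and Eif1 have 8, 10 and 8 pseudogenes in the gene table.

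Eif5a, the hypusine-bearing factor that helps ribosomes past difficult peptide bonds, had 5.57, 5.52 and 5.52 in vehicle and 5.89, 5.74 and 5.33 in TBBC rats (0.11 ± 0.16). TBBC 1 and 2 were above vehicle and TBBC 3 below it. Eif5a2, its paralogue, had -2.88, -3.22 and -2.97 against -2.55, -3.18 and -3.01 (0.11 ± 0.19). Eif6, which keeps large subunits from joining too early, had 5.20, 5.53 and 5.09 against 5.55, 5.75 and 4.98 (0.15 ± 0.23). The groups overlapped for both. Eif5b, the GTPase that joins the subunits, had 1.31, 1.28 and 1.21 against 1.29, 1.37 and 1.13, with a difference of 0.00 ± 0.11.

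**Figure D3:**
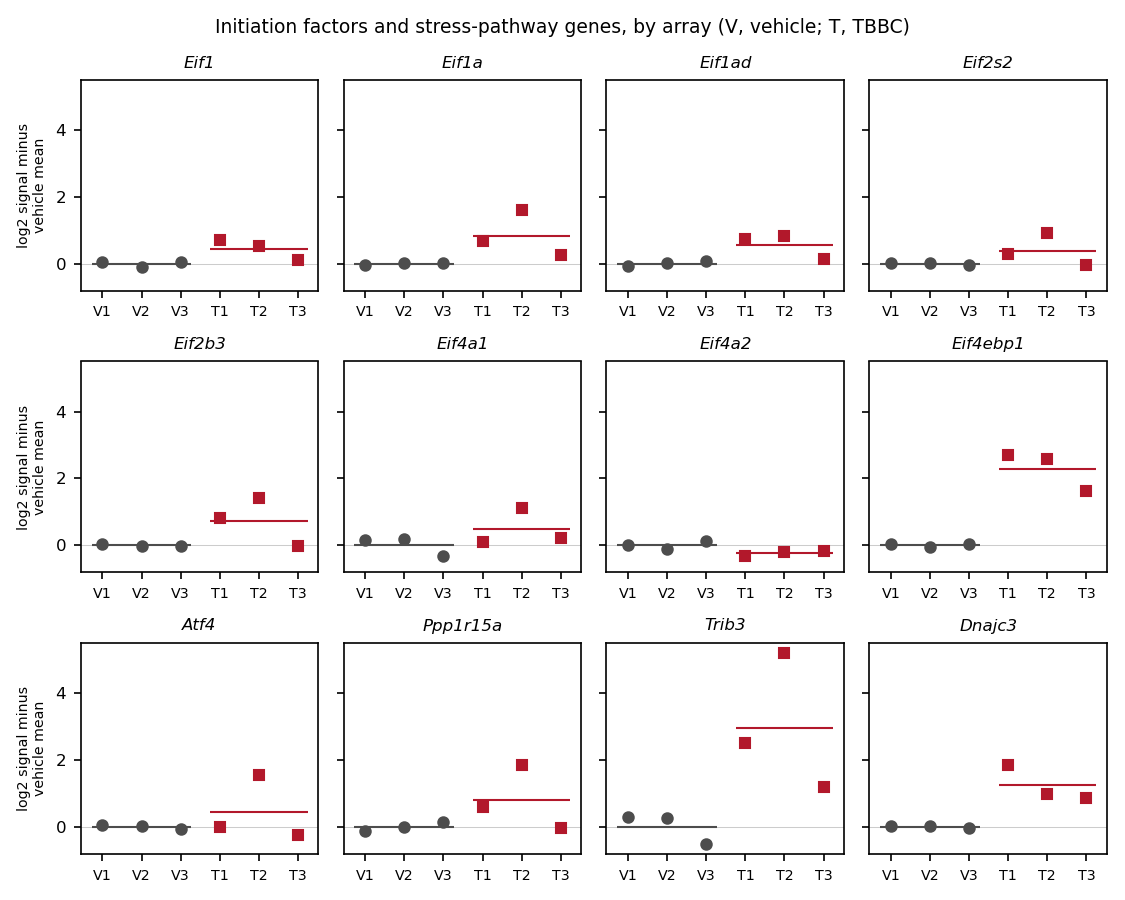
Log2 level minus the vehicle mean (vertical axis) on each array for initiation factors, Eif1ad, Eif4ebp1 and genes of the eIF2 stress pathway; circles are vehicle rats, squares TBBC rats and lines group means. TBBC 2 is the highest array for Eif1a, Eif2s2, Eif2b3, Eif4a1, Atf4, Ppp1r15a and Trib3, and TBBC 3 lies at or below the vehicle mean for Eif2s2, Eif2b3, Atf4 and Ppp1r15a.

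The TBBC rats differed from each other more than the vehicle rats did. The SD was larger in TBBC for 42 of 50 factor genes (74.3% of all transcripts). Its median was 0.22 in TBBC and 0.06 in vehicle rats, against 0.23 and 0.13 over all transcripts. The TBBC rats, unlike the vehicle rats, were spread over 2 slides, and the part of this was not tested. By array the median factor difference was 0.17 in TBBC 1, 0.24 in TBBC 2 and -0.01 in TBBC 3, where the medians over all transcripts were -0.02, -0.05 and -0.01. Leaving out 1 array moved the difference by over 1.5 times for 38 of the 50 genes, and turned its sign for 17. TBBC 3 was the lowest TBBC array for 31 factor genes and TBBC 2 the highest for 26. The shares of all transcripts with this array order, or moved by leaving out 1 array, were not counted. Both TBBC 1 and 2 exceeded the vehicle range for 23 genes, and 12 of these were not above it in TBBC 3, a pattern found in 7.79% of all transcripts, on the brightest probe of each gene. The 12 were Eef1e1, Eif2b3, Eif2b5, Eif2d, Eif2s1, Eif2s2, Eif3b, Eif3c, Eif3d, Eif4e, Eif5a and Eif6. TBBC 3 also had the highest TBBC sum of leukocyte markers, 192 against 90.2 and 94.6 in TBBC 1 and 2, and of proliferation markers, 5.47 against 3.10 and 2.72. Of the 8 proliferation markers tested, 0, 0 and 7 lay above the vehicle mean in TBBC 1, 2 and 3. The part of both lists in this pattern was not tested. The 10 genes named Eef had a median of 0.33, 0.18 and 0.21 across TBBC 1, 2 and 3, and the 40 named Eif 0.13, 0.24 and -0.03. The Eef genes include Eef1e1 and the modifying enzymes Eef2k, Eef2kmt and Eef1akmt1, and the Eif genes include Eif1ad and Eif5a. These medians are thus not of elongation or initiation factors alone.

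Around the factors, 1 pathway gene outside the ribosome passed the threshold. Eif4ebp1, which binds eIF4E and represses cap-dependent initiation until mTOR phosphorylates it, rose from 1.68, 1.58 and 1.67 to 4.33, 4.21 and 3.27. The log2 fold change was 2.29 ± 0.28 (adjusted p 0.0388, limma). The groups were far apart, though the call was lost with any array but TBBC 3 left out (adjusted p 0.0602 to 0.189). Its relatives Eif4ebp2 and Eif4ebp3 differed by -0.12 and 0.09. Of 18 genes of eIF4E binding and mTOR signalling, 1 rose and 0 fell, with a median of -0.03. Rps6kb2, an S6 kinase, had 3.30, 3.31 and 3.33 against 2.96, 3.06 and 2.85 (-0.36 ± 0.10; adjusted p 0.143).

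None of 15 genes of the eIF2 kinases and their counter-regulators passed, and their median was 0.17 (0.05, 0.40 and -0.03 by TBBC array). Trib3, an Atf4 target, had -3.61, -3.64 and -4.42 in vehicle and -1.38, 1.32 and -2.71 in TBBC rats (2.97 ± 0.97; adjusted p 0.176, limma). Dnajc3, an inhibitor of eIF2 kinases, had 2.04, 2.05 and 2.00 against 3.87, 3.02 and 2.90 (1.24 ± 0.26; adjusted p 0.0907). Both, shown for the smallest p of their list, were separate between the groups, as 28.3% of all transcripts were. Atf4 had 4.43, 4.41 and 4.33 against 4.37, 5.95 and 4.15, high in TBBC 2 alone. Ppp1r15a, which directs a phosphatase to eIF2, and Ddit3, a stress transcription factor, had 0.94, 1.06 and 1.22 against 1.65, 2.92 and 1.04, and 2.76, 2.71 and 2.47 against 3.51, 4.62 and 2.61. Both had TBBC 2 highest and TBBC 3 within the vehicle range. Of the kinases themselves, Eif2ak2 had -0.43, -0.41 and -0.41 against -0.25, -0.32 and -0.17 (0.17 ± 0.10), with every TBBC value above every vehicle value. Eif2ak3 had -0.02, -0.06 and 0.04 against 0.04, 0.39 and 0.51 (0.33 ± 0.15), above vehicle in TBBC 2 and 3. Eif2ak1 had 2.70, 2.77 and 2.58 against 2.40, 2.60 and 2.71 (-0.11 ± 0.12) and Eif2ak4 0.16, -0.13 and 0.00 against -0.04, -0.25 and -0.11 (-0.15 ± 0.12), both with overlapping groups.

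An element that Atf4 recognises, spelled TGATGNAAN and searched on both strands, was found in 2 of 47 factor windows (4.26%), against 3.97% of all promoters and 2.4% of those of tested genes. For this and the next motif the whole window of the table was searched, 250 bases before to 50 after the listed start. Both matches are shown (GRCr8, genes on the minus strand), with the match in capitals, starting at position -36 from the listed start in Eif2s2 and at -240 in Eif3g, there on the strand opposite to the gene.
Eif2s2, chr3:163855583-163855621: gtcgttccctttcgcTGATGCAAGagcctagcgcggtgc
Eif3g, chr8:27710163-27710196: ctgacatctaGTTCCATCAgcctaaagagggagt
The E-box CACGTG, which Myc proteins bind, was in 9 of 47 factor windows of that length (19.1%), against 6.42% of all promoters and 8.67% of those of tested genes. No factor window held both elements, and 1 of the 10 windows of factor genes with all TBBC rats above vehicle held the E-box. That gene was Eef2, with the E-box at -76.
Eef2, chr7:9189294-9189329, minus strand, E-box in capitals: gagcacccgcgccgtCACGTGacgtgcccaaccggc

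Among the poly(A)-binding proteins and their partners (0 of 4 past the threshold), Pabpc1, which links the mRNA tail to the cap complex, had 5.64, 5.76 and 5.73 in vehicle and 6.27, 6.32 and 6.17 in TBBC rats (0.54 ± 0.10; adjusted p 0.0765, limma). Pabpc4 had 3.27, 3.16 and 3.23 against 3.89, 3.65 and 3.70 (0.53 ± 0.11; adjusted p 0.0893). Paip2, an inhibitor of Pabpc1, had 4.14, 4.05 and 4.07 against 3.86, 3.83 and 3.75 (-0.28 ± 0.10; adjusted p 0.192). In all 3 genes the groups were separate, as in 28.3% of all transcripts, with Paip2 lower. Pabpc1 and Pabpc4 were shown for the smallest p of their list, a choice that favours separate groups. Paip1 differed by 0.16.

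Termination and recycling genes had 0 of 8 past the threshold and a median of 0.21; Hbs1l, a ribosome rescue GTPase, had 1.21, 1.28 and 1.12 against 0.86, 1.01 and 0.95, and Etf1, the release factor, 3.71, 3.64 and 3.73 against 4.03, 4.44 and 3.72. Of the enzymes that make hypusine and diphthamide, 0 of 8 passed, with a median of 0.02. Dph5, of diphthamide synthesis on eEF2, ran from 1.49 to 1.54 in vehicle and stood at 2.38, 2.77 and 1.75 in TBBC rats (0.79 ± 0.26; adjusted p 0.172, limma), and Dph3 -1.34, -0.97 and -1.23 against -1.36, -1.67 and -1.58. Mitochondrial translation factors had 0 of 8 past the threshold, a median of -0.14 and 7 negative differences. Tufm and Gfm1, the mitochondrial counterparts of eEF1A and eEF2, lay at 5.46, 5.55 and 5.43 against 5.21, 5.16 and 5.26, and at 4.13, 3.96 and 4.12 against 3.83, 3.90 and 3.65. Both mitochondrial factors, shown for the smallest p of their list, were below every vehicle rat in every TBBC rat, opposite in sign to Eef2. So were 15.2% of all transcripts.

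Of 77 cytosolic ribosomal protein genes 1 rose (Rpl19, 0.95 ± 0.12, adjusted p 0.0388, limma) and 0 fell. In 70 of the 77 all TBBC rats lay above all vehicle rats, as in 13.1% of all transcripts and 32.5% of those with a mean level of at least 4. The median was 0.36, or 0.37, 0.33 and 0.35 by TBBC array. The median SD among TBBC rats was 0.07 for these genes, 0.22 for the factor genes and 0.23 for all transcripts. The median of the 6 eEF1 genes, Eef1e1 among them, was 0.45, 0.42 and 0.19 by TBBC array. Of these genes 6, 5 and 4 lay above the vehicle mean, and Eef2 differed by 0.49, 0.29 and 0.34. The cytosolic tRNA synthetases (0 of 20 past the threshold; median 0.33) had 0.38, 0.91 and -0.04, with TBBC 2 highest and TBBC 3 near vehicle, an array order shared by eIF2 (0.19, 0.40 and 0.01) and eIF3. Wars1, the tryptophan enzyme, had 3.67, 3.65 and 3.60 against 5.39, 4.76 and 4.05, and Eprs1, the glutamate and proline enzyme, 3.77, 3.71 and 3.75 against 4.55, 4.76 and 3.95, with adjusted p of 0.149 and 0.163 (limma). Whether the complexes differ from each other across arrays was not tested.

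**Figure D4:**
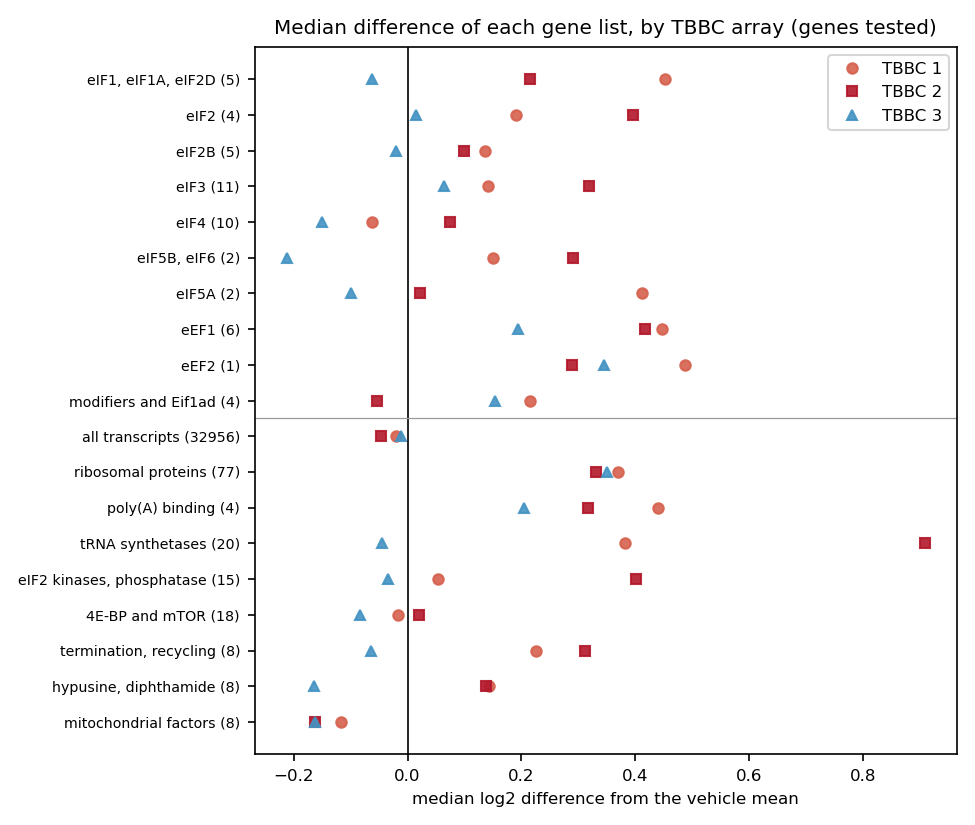
Median log2 difference from the vehicle mean (horizontal axis) of each factor complex, of all transcripts and of the surrounding pathway lists, by TBBC rat, with the number of genes tested in parentheses. Ribosomal proteins lie at 0.33 to 0.37 in all 3 rats, while the tRNA synthetases, eIF2 and eIF3 are highest in TBBC 2 and lowest in TBBC 3.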

How the data were processed

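Each deposited scanner file holds spot intensity values, background-subtracted within the array by the authors' Agilent Feature Extraction (version 10.7.1.1 in the file headers, 10.7 in the submitters' processing notes). The deposited value table holds the authors' linear ratio of that intensity to a number near the array's 75th percentile and served as an alternative. Per the file headers the array was designed on rn4; genes were named by matching probe accessions to RefSeq symbols (GRCr8), for 28206 of 61537 non-control probes. Intensities were scaled to the 75th percentile of their array and put on the log2 scale. Probes well above background on all arrays of at least 1 group were kept (41992), flagged spots (0 to 9 per array) were left out, no spot was saturated, and the brightest probe stood for its gene. Groups were compared with limma 3.58.1 in R 4.3.3 (two-sided, all 6 arrays, Benjamini-Hochberg over 32956 transcripts). The procedure was tested on simulated data. The number of arrays limits the precision.

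Array values are given for the 3 highest and 3 lowest factor genes, the 2 with the smallest p in each complex and pathway list, and a fixed set of central genes; 1 ribosomal protein gene is named because it passed. The members and lists were chosen with earlier results of these data known. Alternatives were other scalings, normexp (offset 50), the value table, filters, probe means, array weights, eBayes with trend and robust, the shared slide alone, slide as a random block (statmod 1.5.0) or as a fixed term, a replicate block, and each array left out.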

Additional observations from a re-analysis of the deposited data

How the results depend on the processing

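No factor gene passed the threshold under any of 21 alternatives (smallest adjusted p 0.0508, Eef1g, eBayes with trend and robust; limma). The sign of 28 factor genes held under all 21, and the 11 higher and 3 lower genes with separate groups were among them. For genes with separate groups the sign is fixed in advance in every fit that only leaves arrays out, so those fits are no test of it. The number of transcripts past the threshold went from 175 to 1087 with trend and robust, 765 with normexp, 64 within the shared slide, 52 without the filter, 48 with slide as a fixed term, and 6 to 263 with 1 array left out (11, 6 and 18 without vehicle 1, 2 and 3; 57 without TBBC 2). Pathway genes past the threshold went from 1 to 3, 4, 3 and 0 under the first 4 of these, and ran from 0 to 2 with 1 array left out. With 1 array left out, factor genes at an unadjusted p under 0.05 (limma) went from 8 to between 3 and 17. They numbered 3, 4 and 4 without vehicle 1, 2 and 3, 5 without TBBC 2, and 17 without TBBC 3. The share among all transcripts ran from 13% to 24% in these fits. Factor genes with separate groups went from 14 to 39 within the shared slide, which has 1 TBBC array. There 69.1% of all transcripts were separate. With 1 array left out they ran from 15 to 27, and 35% to 44% of all transcripts were separate. Within the shared slide and with slide as a fixed term, which rest on TBBC 1, the median was 0.49 for eEF2, 0.41 for eIF5A and 0.45 for the eIF1 group. With 1 array left out the median ran from -0.021 (without TBBC 2) to 0.11 for eIF2B, -0.039 to 0.22 for eIF5A, -0.031 to 0.22 for subunit joining, -0.11 to 0.0021 for eIF4, 0.022 to 0.27 for the modifiers, 0.057 to 0.30 for the eIF1 group, 0.10 to 0.27 for eIF3, 0.10 to 0.26 for eIF2, 0.24 to 0.47 for eEF1 and 0.093 to 0.17 for all factor genes. The ribosomal protein median was 0.38 with normexp, 0.25 with quantile scaling and 0.34 to 0.38 with 1 array left out.

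Replicate numbers are shared between the groups, but the labels do not say that they pair rats, and the groups were compared unpaired. The deviations of same-numbered rats correlated at -0.09, 0.03 and -0.07, and those of other pairs at -0.13 to 0.21. With 3 rats per group these values cannot decide whether the numbers mark pairs. With the replicate block 0 transcripts, 0 factor genes and 0 pathway genes passed, 6 factor genes had an unadjusted p under 0.05, and the factor median was 0.14.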

Other observations

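Among the 31 factor genes with several tested probes, 26 had all probes on one side of 0 and 5 had probes of both signs (Eef1a1, Eif1ax, Eif4b, Eif4e3 and Eif5a2). Over all 113 tested probes of the factor genes, 84 were higher and 29 lower in TBBC rats, and 0 passed the threshold over all probes (limma). The probes of Eif4b had both signs: 4 were lower, down to -0.26, and 2 were higher on all TBBC arrays, by 0.24 and 0.31. For Eif5a2 a dim probe was higher on all TBBC arrays, by 0.57, while the brightest differed by 0.11. Which transcript forms these probes detect was not tested.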
